A study of Mus musculus with 16 samples.

Results

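The comparison described here asked which genes responded differently to loss of p21 in DN3 thymocytes that carry an Lmo2 transgene and in DN3 thymocytes that do not. It used 9 of the 16 samples of the series, all of them poly-A RNA-seq libraries of total sorted DN3 thymocytes from C57BL/6 mice: 3 wildtype (WT) libraries, 2 libraries from p21 KO mice (p21-/-), 2 from LMO2-transgenic mice (Lmo2Tg) and 2 from LMO2-transgenic mice that also lacked p21 (Lmo2Tg;p21-/-). Neither the WT nor the p21-/- animals carried the transgene, which was driven by CD2 regulatory sequences, and p21 was lacking in the whole animal. The mice of all 4 genotypes were 6 weeks old, and the study's methods for expression profiling pool sorted cells of 3 to 5 mice per RNA sample, while the labels do not say what separates one replicate from another, so that p-values measure only the spread between these libraries. For every gene the effect of p21 loss on the log2 scale was taken first as Lmo2Tg;p21-/- minus Lmo2Tg (with the transgene) and then as p21-/- minus WT (without it), and the interaction is the first effect minus the second. A negative interaction therefore means that loss of p21 lowered a gene more, or raised it less, when the transgene was present. Of 22114 genes in the table, 11840 were abundant enough to be tested in 1 fit of all 9 libraries, and each was called when the adjusted p was under 0.05 and the interaction was over 2-fold.

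The gene Cdkn1a encodes p21, an inhibitor of cyclin-dependent kinases that holds cells in G1 and that is induced by p53 and by other signals. DN3 thymocytes are the CD4- CD8- stage at which the T-cell receptor beta locus is rearranged and the pre-T-cell receptor first signals. LMO2 is an adaptor protein of haematopoietic stem and progenitor cells that is normally switched off as T cells commit, and DN3 cells forced to keep it gain the ability to self-renew and may progress to T-cell leukemia. Immediate-early genes, such as the NR4A nuclear receptors, AP-1 subunits and EGR factors, are transcribed within minutes of receptor signaling, growth factors or cell stress without new protein synthesis, and they are followed by feedback inhibitors of the MAPK and NF-kappaB pathways.

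Sequencing depth was even, at 13864936 to 16837667 counts assigned to genes per library, so that 3 counts in a library corresponded to 0.176 to 0.222 CPM, the read count scaled to library size. The first principal component (68.4% of the variance) separated libraries with the transgene from those without, and on the second (13%) the Lmo2Tg libraries (21.2 and 27.4) lay away from the Lmo2Tg;p21-/- libraries (-30 and -21.5). The p21-/- replicates stood apart from each other on the second component (-10.3 and 14.2), and WT replicate 3 (-9.5) stood apart from WT replicates 1 and 2 (2 and 6.6). The second p21-/- library also held more haemoglobin RNA than any other: the summed level of 10 erythroid markers was 35.6 CPM there, 7.50 CPM in the first p21-/- library, 3.33 to 7.38 CPM in WT and 11.7 to 17.4 CPM in the libraries with the transgene, and of these markers Car1 was at 0 everywhere. Of these, 7 could be tested for the interaction described below, and all 7 were below 0, with a median of -2.09 that became -0.47 without the second p21-/- library. All 12 DN3 markers were detected, with a summed level of 8376 to 9351 CPM without and 5627 to 6306 CPM with the transgene, and 6 gamma-delta T-cell markers summed to 167 to 181 CPM without and 248 to 778 CPM with it. In bulk RNA, a lower level can come from fewer cells of a kind or from less RNA per cell, which cannot be told apart.

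Cdkn1a itself (chr17:29090976-29100727, GRCm38) stood at 36.5, 37.5 and 49.0 CPM in WT, 14.3 and 17.7 CPM in p21-/-, 32.8 and 26.3 CPM in Lmo2Tg and 4.35 and 3.50 CPM in Lmo2Tg;p21-/- libraries. Both p21-/- libraries were below all 3 WT libraries and both Lmo2Tg;p21-/- libraries below both Lmo2Tg libraries, the order their labels give. The Lmo2Tg;p21-/- libraries were also below the p21-/- libraries, an order the labels do not give. Reads were still counted over the gene in each library labelled as lacking p21. The effect of p21 loss on this count was -1.36 (SE 0.17, adjusted p = 0.00821) without the transgene and -2.92 (SE 0.21, adjusted p = 9.08e-05) with it. The interaction of Cdkn1a was -1.56 (SE 0.27, adjusted p = 0.0319), and lay between -1.73 and -1.39 with 1 library left out, with an adjusted p of 0.13 and no call without p21-/- replicate 2. A count per gene does not show which part of it the reads came from, and exons of another transcript (AC167363.2) overlap Cdkn1a on the opposite strand. Lmo2, by contrast, was at 0.306, 0.0636 and 0.242 CPM in WT, 0.176 and 0.190 CPM in p21-/-, 41.4 and 100.4 CPM in Lmo2Tg and 85.4 and 107 CPM in Lmo2Tg;p21-/- libraries. Lmo2 was therefore near 0 in every library without the transgene, and the 2 groups with it overlapped. Its interaction of 0.61 (SE 1.58, adjusted p = 0.877) was not called and rests on 3 counts or fewer in each p21-/- library.

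Across all genes, 95 were called for the interaction (0.802% of those tested), 86 with a negative value (0.726%) and 9 with a positive one (0.076%). The median over all tested genes was 0.01, so the table as a whole was not shifted to 1 side. Without the fold threshold, 163 genes had an adjusted p under 0.05, of which 130 were negative, and 2148 had an unadjusted p under 0.05. The smallest adjusted p was 0.0165. For comparison, loss of p21 called 222 genes (1.88%) with the transgene, 171 lower (1.44%) and 51 higher (0.431%), but 12 genes (0.101%) without it. These 3 contrasts share libraries, so their counts are not independent.

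**Figure D1:**
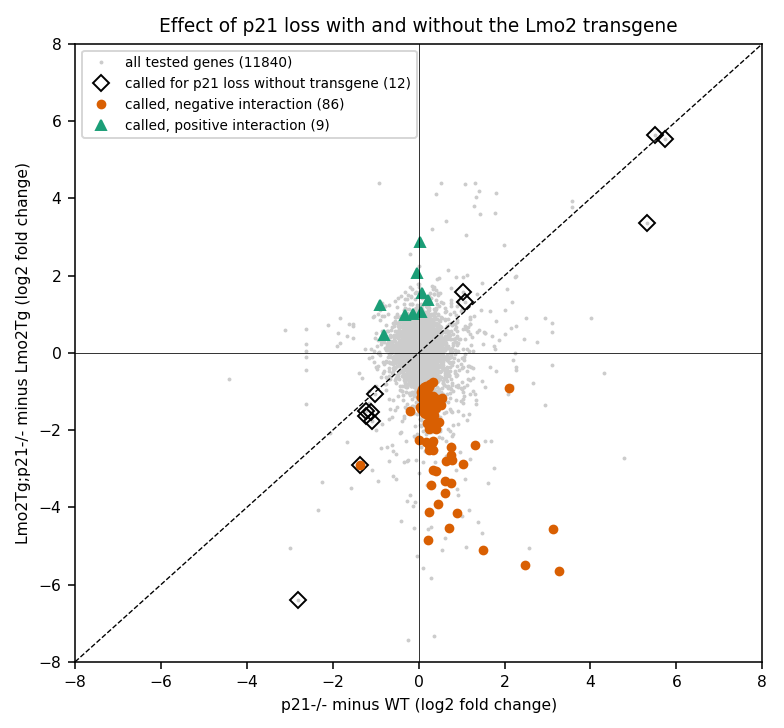
Effect of p21 loss without the transgene (horizontal axis, log2 fold change) against the effect with it (vertical axis, log2 fold change) for each of 11840 tested genes, where the dashed line marks equal effects. The 86 genes with a negative interaction lie below the line, with effects of -5.64 to -0.76 on the vertical axis, and the 9 genes with a positive one lie above it, while 11 of the 12 diamonds, which mark genes called without the transgene, are not among the genes called for the interaction.

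The number of calls rested on single libraries. With 1 library left out at a time, it was 0 without WT replicate 1, 56 without WT replicate 2, 0 without WT replicate 3, 259 without p21-/- replicate 1, 16 without p21-/- replicate 2, 53 without Lmo2Tg replicate 2, 93 without Lmo2Tg replicate 3, 0 without Lmo2Tg;p21-/- replicate 1 and 1 without Lmo2Tg;p21-/- replicate 2. Where it was 0 by edgeR, 1823, 2346 and 1367 genes still had an unadjusted p under 0.05 (without WT replicate 1, WT replicate 3 and Lmo2Tg;p21-/- replicate 1, respectively), and the smallest adjusted p was 0.065, 0.0546 and 0.103. None of the 95 genes changed sign in any of these 9 fits, and 79 (without p21-/- replicate 2) to 95 (without WT replicate 2) of them stayed over 2-fold in the same direction. They were chosen for their size in the fit of all 9 libraries, which shares most libraries with each of these fits. A kept sign was therefore favoured in advance. Sizes did change: the median of the 86 negative genes went from -1.76 to -1.37 without p21-/- replicate 2.

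**Figure D2:**
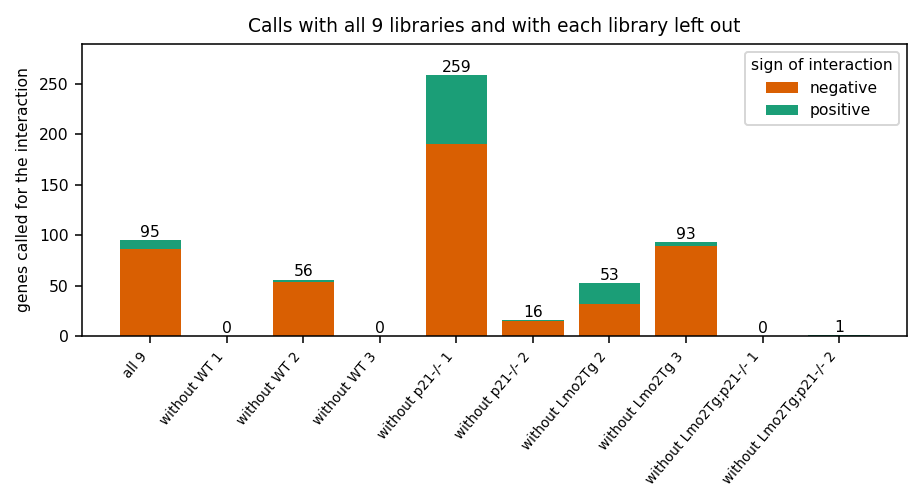
Genes called for the interaction (bar height, stacked by sign) with all 9 libraries and with each library left out. The count of 95 with all libraries rose to 259 without p21-/- replicate 1 and was 0 or 1 without WT replicate 1, WT replicate 3 or either Lmo2Tg;p21-/- replicate.

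The 86 genes with a negative interaction had a common form, in which Lmo2Tg was the high genotype. For 74 of them Lmo2Tg lay furthest from the mean of the other genotypes and above it, for 11 Lmo2Tg;p21-/- was furthest and low, and for 1 WT was furthest and low. Both Lmo2Tg libraries were above all 7 others for 77 of the 86 genes, against 9.95% of all tested genes, although the contrast itself favours this order. Both Lmo2Tg;p21-/- libraries were below all 7 others for 24 of the 86, against 11.7% of all tested genes, an order that the contrast favours as well. With the transgene, loss of p21 lowered all 86 (median -1.52), and the test called 73 of them. Of all tested genes, 47.2% were lower and 1.44% were called lower. This effect is part of the contrast, so the choice of the 86 genes favoured both counts. Relative to the WT mean, the median of these genes was 1.54 and 1.37 (log2) in the Lmo2Tg libraries and -0.15 and -0.11 in the Lmo2Tg;p21-/- libraries.

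Without the transgene, the picture depended on the p21-/- replicate. The median of the 86 genes was -0.15 in the first p21-/- library and 0.63 in the second (log2 relative to the WT mean), and the second was above the first and above every WT library for 80 of 86 genes, against 24.1% of all tested genes. A high p21-/- value makes the interaction more negative, so the choice of these genes favours this order. The fitted effect of p21 loss without the transgene was above 0 for 84 of the 86 (median 0.27) with both replicates. Without p21-/- replicate 2 it was below 0 for 71 of the 86 (median -0.16), and the median interaction went from -1.76 to -1.37. The direction of the effect of p21 loss on these genes in non-transgenic cells was thus not settled by these libraries, and its link with the higher haemoglobin RNA of the second replicate was not tested.

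**Figure D3:**
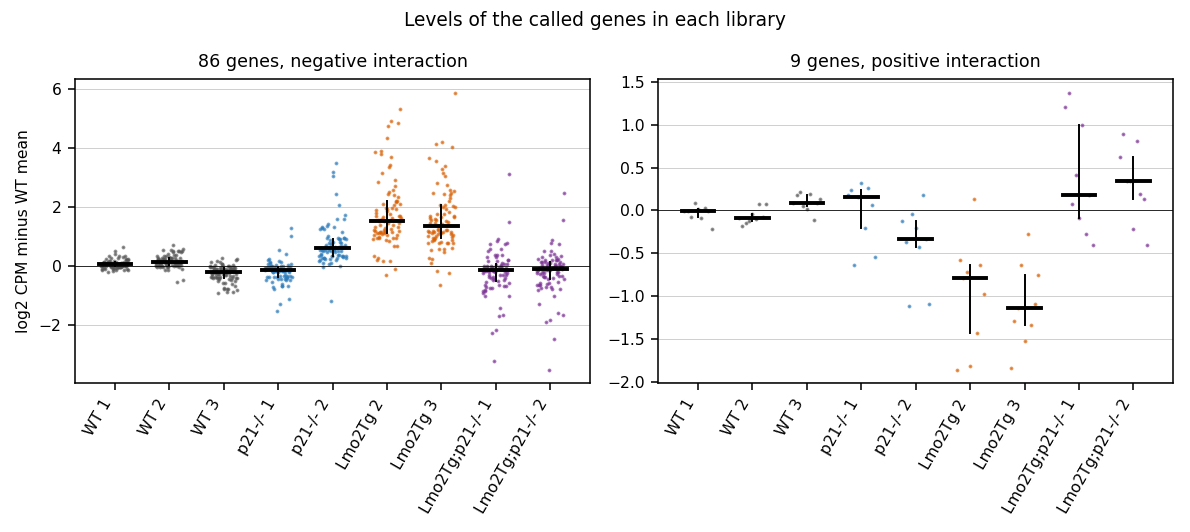
Log2 CPM relative to the WT mean (vertical axis) in each library (horizontal axis) for the 86 genes with a negative and the 9 with a positive interaction; points are genes, thick bars medians and thin bars quartiles. The 2 Lmo2Tg medians of the 86 genes are 1.54 and 1.37, p21-/- replicate 2 is at 0.63, and the other 6 medians lie between -0.20 and 0.15.

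Immediate-early transcription factors had the most negative median interaction of the 22 pathway lists. These lists were chosen with earlier results of these data known, so their shares of calls beside those of all tested genes are descriptions. Of 25 tested, 7 (28%, against 0.726% of all tested genes) were called negative and 0 positive, 22 were below 0, and the median was -1.81, against 0.01 over all tested genes. Nr4a1 (chr15:101254269-101274795), a nuclear receptor used as a readout of antigen-receptor signaling, stood at 27.0, 34.5 and 21.1 CPM in WT, 19.4 and 64.8 CPM in p21-/-, 392 and 339 CPM in Lmo2Tg and 27.1 and 32.1 CPM in Lmo2Tg;p21-/- libraries. The Lmo2Tg libraries were far above every other library, and the Lmo2Tg;p21-/- libraries overlapped with WT. With the transgene, the effect of p21 loss on Nr4a1 was -3.63 (SE 0.43, adjusted p = 0.00216), and its interaction was -4.23 (SE 0.55, adjusted p = 0.0184). Without p21-/- replicate 2 the interaction was -3.12, and with 1 library left out it lay between -4.86 and -3.12. Like every other gene, Nr4a1 was not called without WT replicate 1 or without WT replicate 3.

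The other NR4A receptors were also highest on average in Lmo2Tg, with wider standard errors. Nr4a3 (chr4:48045153-48086447) was measured at 6.13, 6.81 and 2.54 CPM in WT, 2.93 and 54.6 CPM in p21-/-, 145 and 39.7 CPM in Lmo2Tg and 1.71 and 2.29 CPM in Lmo2Tg;p21-/- libraries. Here p21-/- replicate 2 lay above 1 of the 2 Lmo2Tg libraries, so these groups overlapped, and the interaction of -7.98 (SE 1.46, adjusted p = 0.0332) became -4.69 (adjusted p = 0.238) without that replicate and was no longer called. Nr4a2 was at 4.60, 7.19 and 2.48 CPM in WT, 2.81 and 13.3 CPM in p21-/-, 57.7 and 46.7 CPM in Lmo2Tg and 4.07 and 5.86 CPM in Lmo2Tg;p21-/- libraries, with an interaction of -4.13 (SE 0.76, adjusted p = 0.0332) and of -2.63 (adjusted p = 0.186) without p21-/- replicate 2. Maff, a small MAF protein that pairs with NFE2-family and AP-1 factors, was at 6.31, 9.22 and 4.17 CPM in WT, 2.52 and 15.7 CPM in p21-/-, 64.3 and 57.0 CPM in Lmo2Tg and 4.43 and 3.62 CPM in Lmo2Tg;p21-/- libraries. Both Lmo2Tg libraries stood clear of all others, of which p21-/- replicate 2 was the highest. The interaction of Maff was -4.38 (SE 0.79, adjusted p = 0.0332), and -2.54 (adjusted p = 0.12) without p21-/- replicate 2. Without that replicate, 1 of the 25 immediate-early genes was called (Nr4a1), while the median of the list was -1.63 and 22 were again below 0.

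Among AP-1 subunits, 2 of 14 (14.3%, against 0.726% of all tested genes) were called negative and 0 positive, and the median was -1.04. Without p21-/- replicate 2, 0 were called by edgeR and the median was -0.57. Fosl2, the FOS-family protein FRA2, was measured at 5.64, 6.42 and 2.66 CPM in WT, 2.81 and 25.2 CPM in p21-/-, 50.7 and 19.6 CPM in Lmo2Tg and 1.36 and 0.725 CPM in Lmo2Tg;p21-/- libraries. The Lmo2Tg;p21-/- libraries were the lowest of all, and p21-/- replicate 2 was above 1 Lmo2Tg library. Its interaction was -6.60 (SE 1.21, adjusted p = 0.0332), and -4.30 (adjusted p = 0.14) without that replicate. The related Mafk varied little within genotypes, at 94.4, 97.4 and 91.9 CPM in WT, 90.3 and 106 CPM in p21-/-, 180.3 and 165 CPM in Lmo2Tg and 85.6 and 83.9 CPM in Lmo2Tg;p21-/- libraries. All 5 libraries without the transgene lay between 90.3 and 106 CPM, so the interaction of -1.08 (SE 0.13, adjusted p = 0.0165) came from the transgenic genotypes, where the effect of p21 loss was -1.02 (SE 0.09, adjusted p = 0.000427). Without p21-/- replicate 2, Mafk kept an adjusted p of 0.0251 but at -0.96 was no longer over 2-fold.

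**Figure D4:**
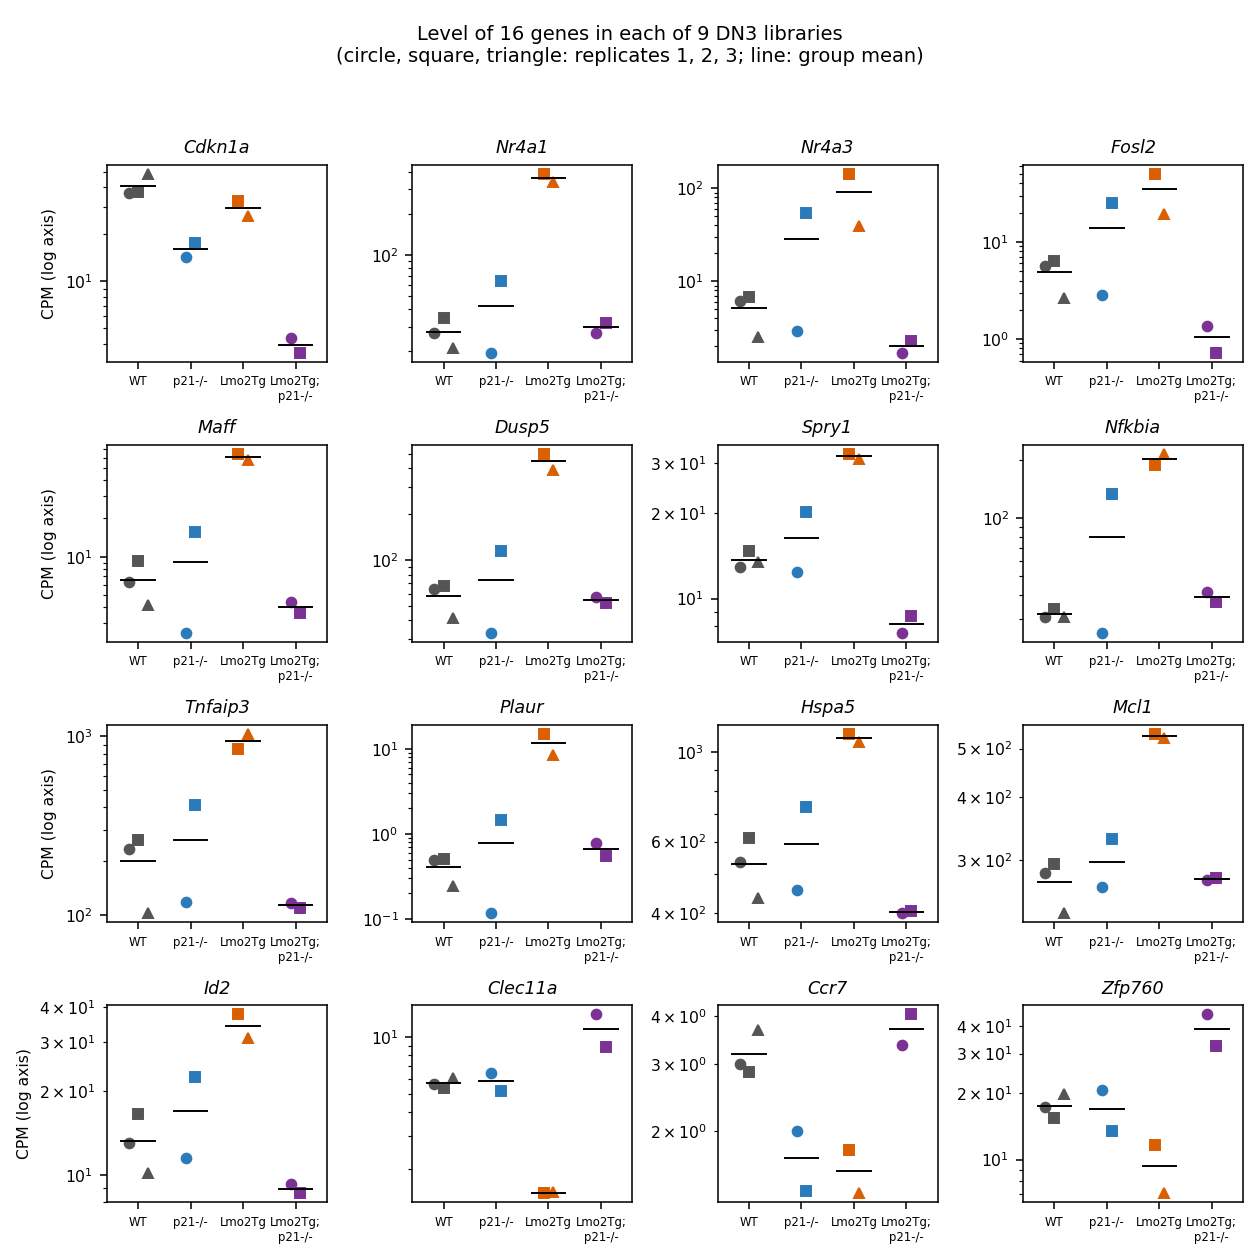
Level (CPM, log axis) of 16 genes in each of the 9 libraries by genotype; each point is a library, marked by replicate number, and lines are group means. Cdkn1a is lowest in Lmo2Tg;p21-/- at 3.50 and 4.35 CPM, the Lmo2Tg points of Nr4a1 at 392 and 339 CPM stand above all others while its Lmo2Tg;p21-/- points lie in the WT range, and Clec11a has the opposite order.

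Because these genes moved together, their promoters were searched for short motifs that are bound by signal-dependent factors. Promoter sequences (RefSeq, GRCm38.p6, from 250 bases before to 50 bases after each annotated start) were found for 75 of the 86 genes, as 103 promoters. Both strands were searched for the cAMP response element TGACGTCA, the AP-1 site TGANTCA, the E-box CACGTG, the serum-response CArG box and the kappaB site. Of the 103 promoters, 5.83% held the cAMP response element, against 1.79% of all 32851 promoters and 3.09% of the promoters of tested genes. For the E-box these shares were 16.5%, 7.15% and 9.93%, for the AP-1 site 8.74%, 7.81% and 4.87%, for the kappaB site 11.7%, 8.46% and 10.3%, and for the CArG box 1.94%, 1.63% and 1.22%. Most promoters of the called genes therefore held none of these letters in this window. Promoters of 5 called genes that did hold a match are printed here 5′ to 3′ to show where the matches lie, with the matched bases in capitals: a kappaB site in Nr4a1 and Nfkbia, an AP-1 site in Plaur, 2 adjoining CArG boxes in Dusp5, and an E-box followed by a cAMP response element in Maff. A match is a description of sequence and was not tested as a binding site.
Nr4a1 (chr15:101266596-101266895, plus strand): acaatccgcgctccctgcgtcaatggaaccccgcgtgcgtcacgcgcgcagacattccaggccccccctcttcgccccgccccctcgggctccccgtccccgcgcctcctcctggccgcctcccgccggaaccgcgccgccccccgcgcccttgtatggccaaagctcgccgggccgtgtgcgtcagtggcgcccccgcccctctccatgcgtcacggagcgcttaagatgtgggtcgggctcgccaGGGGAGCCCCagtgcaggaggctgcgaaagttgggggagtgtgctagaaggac
Nfkbia (chr12:55492598-55492897, minus strand): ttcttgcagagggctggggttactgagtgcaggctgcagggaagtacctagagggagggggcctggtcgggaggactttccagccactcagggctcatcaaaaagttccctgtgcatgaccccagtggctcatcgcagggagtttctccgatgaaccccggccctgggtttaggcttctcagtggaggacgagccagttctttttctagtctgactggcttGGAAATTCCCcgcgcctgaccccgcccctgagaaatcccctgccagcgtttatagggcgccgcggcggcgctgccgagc
Plaur (chr7:24462233-24462532, plus strand): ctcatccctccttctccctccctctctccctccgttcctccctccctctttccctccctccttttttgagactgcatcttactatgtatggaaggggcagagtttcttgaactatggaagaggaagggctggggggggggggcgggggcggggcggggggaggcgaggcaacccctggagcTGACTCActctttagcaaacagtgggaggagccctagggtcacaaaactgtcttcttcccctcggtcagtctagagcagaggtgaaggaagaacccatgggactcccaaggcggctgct
Dusp5 (chr19:53528895-53529194, plus strand): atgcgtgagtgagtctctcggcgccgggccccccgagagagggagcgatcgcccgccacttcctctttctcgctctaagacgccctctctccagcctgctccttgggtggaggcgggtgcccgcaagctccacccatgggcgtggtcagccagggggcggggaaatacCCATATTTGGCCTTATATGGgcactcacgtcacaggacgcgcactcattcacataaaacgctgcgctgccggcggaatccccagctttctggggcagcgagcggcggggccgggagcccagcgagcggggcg
Maff (chr15:79347270-79347569, plus strand): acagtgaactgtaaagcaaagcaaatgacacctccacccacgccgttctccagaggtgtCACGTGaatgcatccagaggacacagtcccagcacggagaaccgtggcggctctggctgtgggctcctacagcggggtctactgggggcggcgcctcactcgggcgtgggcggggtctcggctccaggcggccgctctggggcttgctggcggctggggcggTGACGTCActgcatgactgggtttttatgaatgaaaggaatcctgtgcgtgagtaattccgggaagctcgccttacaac

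Of 20 feedback inhibitors of MAPK and calcineurin signaling, 6 (30%, against 0.726% of all tested genes) were called negative and 0 positive, 17 were below 0 and the median was -1.75. Dusp5 (chr19:53529109-53542431), a nuclear phosphatase that inactivates ERK and whose promoter is printed above, was at 64.3, 67.1 and 41.7 CPM in WT, 33.0 and 114 CPM in p21-/-, 499.9 and 393 CPM in Lmo2Tg and 57.1 and 51.8 CPM in Lmo2Tg;p21-/- libraries. Both Lmo2Tg libraries exceeded every other library by more than 3-fold. The interaction was -3.38 (SE 0.57, adjusted p = 0.03), or -2.23 (adjusted p = 0.0296) without p21-/- replicate 2. Annotated exons of antisense transcripts overlap Dusp5 and Spry1, and if reads were counted without strand, those of the partners cannot be told apart. Spry1, an inhibitor of receptor tyrosine kinase signaling, was at 12.9, 14.8 and 13.4 CPM in WT, 12.4 and 20.3 CPM in p21-/-, 32.4 and 31.1 CPM in Lmo2Tg and 7.57 and 8.70 CPM in Lmo2Tg;p21-/- libraries. Here the libraries with the transgene bracketed all of those without it, with Lmo2Tg on top and Lmo2Tg;p21-/- at the bottom. Spry1 had an interaction of -2.21 (SE 0.27, adjusted p = 0.0165), and remained called without p21-/- replicate 2 at -1.82 (adjusted p = 0.0101).

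Further called members of the list spread more. Rgs2, which limits signaling by Gq-coupled receptors, had an interaction of -2.64 (SE 0.56, adjusted p = 0.049), and Errfi1, an inhibitor of EGF-receptor kinases, one of -1.95 (SE 0.31, adjusted p = 0.0261). Without p21-/- replicate 2 these were -1.87 and -1.60, neither called, and 2 of the 20 genes were called (Spry1 and Dusp5), with a list median of -1.29.

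Of 18 NF-kappaB subunits and feedback inhibitors, 2 (11.1%, against 0.726% of all tested genes) were called negative, and the median of the list was -0.19. Both are inhibitors of the pathway. Nfkbia, which encodes IkappaB-alpha and is itself induced by NF-kappaB, stood at 31.0, 33.9 and 30.7 CPM in WT, 25.5 and 134 CPM in p21-/-, 189 and 216 CPM in Lmo2Tg and 41.4 and 36.8 CPM in Lmo2Tg;p21-/- libraries. The first p21-/- library was the lowest of the 9, while the second was closer to Lmo2Tg than to WT. The interaction was -3.70 (SE 0.69, adjusted p = 0.0335), and -2.05 (adjusted p = 0.00198) without that replicate, with a smaller size and a smaller p. Tnfaip3, which encodes the ubiquitin-editing enzyme A20, was at 234, 264 and 102 CPM in WT, 117 and 411 CPM in p21-/-, 845 and 1031 CPM in Lmo2Tg and 116 and 109 CPM in Lmo2Tg;p21-/- libraries. The WT libraries alone spread from 102 to 264 CPM, and p21-/- replicate 2 lay above all of them. Its interaction was -3.46 (SE 0.68, adjusted p = 0.0373), and -2.28 (adjusted p = 0.14) without p21-/- replicate 2, when it was no longer called. By edgeR no subunit of the factor itself was called.

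Of 13 cytokines and chemokines, 1 (7.69%, against 0.726% of all tested genes) was called negative and 0 positive. This gene, Cxcl10, a chemokine induced by interferon, was at 0.184, 0.127 and 0 CPM in WT, 0.117 and 1.84 CPM in p21-/-, 4.22 and 3.83 CPM in Lmo2Tg and 0.143 and 0.181 CPM in Lmo2Tg;p21-/- libraries, with both WT and Lmo2Tg;p21-/- at or under 3 counts in every library, so that its fitted interaction depends on the prior count and is not given as a fold. Of 35 interferon-stimulated genes, 2 (5.71%, against the same 0.726%) were called negative, Cxcl10 and the transcription factor Irf1, and the median of the list was -0.07. Irf1 was at 111, 124 and 99.7 CPM in WT, 98.0 and 173 CPM in p21-/-, 279 and 221 CPM in Lmo2Tg and 116 and 109 CPM in Lmo2Tg;p21-/- libraries, with an interaction of -1.43 (SE 0.29, adjusted p = 0.043) and of -0.96 (adjusted p = 0.12) without p21-/- replicate 2.

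Several of the largest interactions belonged to genes outside these lists. Plaur, the urokinase receptor, whose promoter is printed above, was at 0.490, 0.509 and 0.242 CPM in WT, 0.117 and 1.46 CPM in p21-/-, 14.9 and 8.55 CPM in Lmo2Tg and 0.785 and 0.543 CPM in Lmo2Tg;p21-/- libraries. It was high in both Lmo2Tg libraries and at 0.12 to 1.46 CPM elsewhere, and its interaction was -5.02 (SE 1.02, adjusted p = 0.0432), or -2.39 (adjusted p = 0.709) without p21-/- replicate 2. Trib1, a pseudokinase that directs proteins to degradation, was at 24.8, 27.9 and 15.4 CPM in WT, 13.4 and 56.3 CPM in p21-/-, 307 and 261 CPM in Lmo2Tg and 32.8 and 24.2 CPM in Lmo2Tg;p21-/- libraries. Its interaction of -3.94 (SE 0.65, adjusted p = 0.03) was still called without p21-/- replicate 2, at -2.56 (adjusted p = 0.0353). Sgk1, a kinase induced by serum and glucocorticoids, was at 4.96, 5.73 and 2.00 CPM in WT, 2.64 and 7.66 CPM in p21-/-, 59.7 and 69.9 CPM in Lmo2Tg and 6.50 and 5.62 CPM in Lmo2Tg;p21-/- libraries, with an interaction of -3.70 (SE 0.59, adjusted p = 0.0261) that lay between -4.28 and -2.75 with 1 library left out.

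Genes of low abundance completed this group. Fzd9, a Wnt receptor, was at 1.90, 1.78 and 0.786 CPM in WT, 0.997 and 2.53 CPM in p21-/-, 5.47 and 3.97 CPM in Lmo2Tg and 0.214 and 0.302 CPM in Lmo2Tg;p21-/- libraries. It was lowest in Lmo2Tg;p21-/- and had an interaction of -4.37 (SE 0.78, adjusted p = 0.0332). Apol8, a member of the apolipoprotein L family, was at 0.0613, 0.127 and 0.0605 CPM in WT, 0.176 and 1.58 CPM in p21-/-, 5.47 and 1.92 CPM in Lmo2Tg and 0.143 and 0 CPM in Lmo2Tg;p21-/- libraries, and Pde1c, a calcium-dependent phosphodiesterase, at 0.184, 0.0636 and 0.182 CPM in WT, 0.410 and 0.190 CPM in p21-/-, 10.3 and 15.3 CPM in Lmo2Tg and 2.14 and 1.33 CPM in Lmo2Tg;p21-/- libraries. WT was at or under 3 counts in every library for both genes, and so was Lmo2Tg;p21-/- for Apol8, so no fold is given for either.

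Chaperones and stress genes had smaller but more even interactions. Of 37 heat-shock proteins and chaperones, 4 (10.8%, against 0.726% of all tested genes) were called negative and 0 positive, 34 were below 0, and the median was -0.40. Hspa5, the endoplasmic reticulum chaperone BiP, was at 535, 612 and 435 CPM in WT, 455 and 729 CPM in p21-/-, 1107 and 1059 CPM in Lmo2Tg and 399 and 404 CPM in Lmo2Tg;p21-/- libraries. The Lmo2Tg;p21-/- libraries were below every other library, and the interaction was -1.60 (SE 0.26, adjusted p = 0.03). Dnajb9, an endoplasmic reticulum co-chaperone that works with BiP, had an interaction of -2.64 (SE 0.46, adjusted p = 0.0319), and the cytosolic co-chaperone Dnajb4 one of -1.67 (SE 0.32, adjusted p = 0.0371). Hsph1, a nucleotide-exchange factor of HSP70, was at 146, 182 and 147 CPM in WT, 186 and 156 CPM in p21-/-, 192 and 184 CPM in Lmo2Tg and 97.6 and 94.4 CPM in Lmo2Tg;p21-/- libraries. Its Lmo2Tg;p21-/- libraries were below all others, while p21-/- replicate 2 was below replicate 1. The interaction of -1.08 (SE 0.16, adjusted p = 0.0244) became -1.20 (adjusted p = 0.0313) without p21-/- replicate 2, which made it the only called member of the list in that fit.

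Single members of other lists were called. Mcl1, a BCL2-family survival protein with a short-lived transcript, was at 283, 294 and 235 CPM in WT, 265 and 329.7 CPM in p21-/-, 535 and 524 CPM in Lmo2Tg and 273 and 276 CPM in Lmo2Tg;p21-/- libraries. Its interaction was -1.08 (SE 0.17, adjusted p = 0.0244), and it was the only 1 of 12 BCL2-family genes called by edgeR (8.33%, against 0.726% of all tested genes), while DESeq2 called 2. Id2, an inhibitor of E proteins, was at 13.1, 16.6 and 10.2 CPM in WT, 11.5 and 22.4 CPM in p21-/-, 37.7 and 31.1 CPM in Lmo2Tg and 9.28 and 8.57 CPM in Lmo2Tg;p21-/- libraries and had an interaction of -2.30 (SE 0.39, adjusted p = 0.03), the only 1 of 21 T-lineage commitment factors called by edgeR (4.76%). Slc3a2 and Slc7a5, the 2 chains of the large neutral amino acid transporter, had interactions of -1.13 (SE 0.21, adjusted p = 0.0335) and -1.01 (SE 0.15, adjusted p = 0.0236), and were the members called by edgeR among 15 nutrient transporters (13.3%). In Slc7a5 it was Lmo2Tg;p21-/- that lay apart, at 181, 201 and 188 CPM in WT, 186 and 231 CPM in p21-/-, 217 and 206 CPM in Lmo2Tg and 109 and 121 CPM in Lmo2Tg;p21-/- libraries.

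Of 32 targets of p53, the main inducer of Cdkn1a, 2 (6.25%, against 0.726% of all tested genes) were called negative and 0 positive, with a median of -0.12. They were Cdkn1a, the deleted gene, and Plk3, a polo-like kinase of the stress response, which was at 4.60, 5.53 and 2.42 CPM in WT, 2.81 and 7.85 CPM in p21-/-, 20.3 and 16.8 CPM in Lmo2Tg and 3.35 and 3.14 CPM in Lmo2Tg;p21-/- libraries and had an interaction of -2.85 (SE 0.58, adjusted p = 0.0446). Annotated exons of Tctex1d4 overlap Plk3 on the opposite strand. Of 7 CDK inhibitors, Cdkn1a was the only one called by edgeR (14.3%). As the deleted gene, Cdkn1a adds to the shares of both lists, although its count need not be a response to p21 loss.

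With p21-/- replicate 2 left out, 15 of the 95 genes were still called. They were the rule-named genes Nr4a1, Nfkbia, Dusp5, Spry1, Trib1, Hsph1 and Clec11a, and Tiparp, Zfand2a, Snx18, Fam83d, Siah2, Topors, Yrdc and Odc1, which are named here after their values were seen. In that fit 0 members of the lists of AP-1 subunits, cytokines, interferon-stimulated genes, p53 targets, CDK inhibitors, BCL2 family, T-lineage factors and nutrient transporters were called by edgeR, while all 9 libraries had given 1 or 2 each. Tiparp, an ADP-ribosyltransferase induced by the aryl hydrocarbon receptor, had an interaction of -3.55 with all libraries and -2.67 without that replicate. Siah2, a ubiquitin ligase of the hypoxia response, had -2.48 and -1.92. Odc1, the rate-limiting enzyme of polyamine synthesis, was at 168, 179 and 199.8 CPM in WT, 172 and 209 CPM in p21-/-, 228 and 219.9 CPM in Lmo2Tg and 97.5 and 105 CPM in Lmo2Tg;p21-/- libraries. In Odc1 the 7 other libraries lay between 168 and 228 CPM, and the Lmo2Tg;p21-/- libraries at 97.5 and 104.8 CPM, so that this genotype was the one apart. The interaction of Odc1 was -1.21 (SE 0.15, adjusted p = 0.0165), and with 1 library left out it lay between -1.34 and -1.06. Another 2 genes with this form, also chosen after their values were seen, were Insl5, a peptide of the relaxin family, at 3.25, 2.93 and 3.57 CPM in WT, 3.17 and 3.42 CPM in p21-/-, 3.70 and 2.87 CPM in Lmo2Tg and 0.571 and 0.785 CPM in Lmo2Tg;p21-/- libraries, and Ctla4, an inhibitory receptor of T cells, at 2.86 and 3.02 CPM in Lmo2Tg;p21-/- and 7.04 to 9.38 CPM in the 7 other libraries. Their interactions were -2.26 and -1.31, called with all 9 libraries and not without p21-/- replicate 2.

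Among the 9 genes with a positive interaction, the furthest genotype was Lmo2Tg and low for 5, Lmo2Tg;p21-/- and high for 3, and WT and high for 1. Both Lmo2Tg libraries were below all 7 others for 6 of them, against 10.8% of all tested genes, and both Lmo2Tg;p21-/- libraries were above all 7 others for 5, against 13.1%. The contrast itself favours both orders. With the transgene, loss of p21 raised 7 of the 9 past the test, against 0.431% of all tested genes. The contrast favours this direction as well. Clec11a (chr7:44302687-44306902), a secreted growth factor of the C-type lectin family, was at 5.64, 5.34 and 6.05 CPM in WT, 6.45 and 5.19 CPM in p21-/-, 1.48 and 1.50 CPM in Lmo2Tg and 13.2 and 8.82 CPM in Lmo2Tg;p21-/- libraries. All 5 libraries without the transgene lay between 5.19 and 6.45 CPM, while the Lmo2Tg libraries were at about 1.5 CPM and the Lmo2Tg;p21-/- libraries above all others. The effect of p21 loss on Clec11a was 2.87 (SE 0.26, adjusted p = 0.000427) with the transgene and 0.04 (SE 0.21, adjusted p = 0.991) without it, which was not called. Its interaction of 2.83 (SE 0.34, adjusted p = 0.0165) was the only positive one still called without p21-/- replicate 2, at 2.69 (adjusted p = 0.0313).

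Ccr7, a chemokine receptor of mature thymocytes and naive T cells, was at 3.00, 2.86 and 3.69 CPM in WT, 1.99 and 1.39 CPM in p21-/-, 1.78 and 1.37 CPM in Lmo2Tg and 3.35 and 4.05 CPM in Lmo2Tg;p21-/- libraries. It was low in both p21-/- and Lmo2Tg and higher in WT and Lmo2Tg;p21-/-, and had an interaction of 2.14 (SE 0.39, adjusted p = 0.0332). It was the only marker of double-positive and mature alpha-beta T cells called by edgeR (DESeq2 called 2), and these 13 markers summed to 1262 to 1430 CPM without and 1763 to 1983 CPM with the transgene. Zfp760 and Zfp229, zinc-finger genes that lie close together on chromosome 17 (chr17:21707741-21725636 and chr17:21730795-21769342), had interactions of 2.09 (SE 0.35, adjusted p = 0.03) and 1.46 (SE 0.29, adjusted p = 0.0373). Their family has many near copies, so reads may be split between members. Cdkn1a lies on the same chromosome, and the part of this position in their values was not tested. Zfp760 was at 17.3, 15.3 and 19.7 CPM in WT, 20.5 and 13.4 CPM in p21-/-, 11.6 and 7.04 CPM in Lmo2Tg and 45.0 and 32.4 CPM in Lmo2Tg;p21-/- libraries, and its Lmo2Tg;p21-/- libraries were above all others. Lyz2, which encodes lysozyme of myeloid cells, was lower in Lmo2Tg (5.77 and 6.15 CPM) than in the 7 other libraries (13.0 to 18.8 CPM), with an interaction of 1.16 (SE 0.23, adjusted p = 0.0376). Summed levels of 18 myeloid markers were 21.3 to 38.9 CPM without and 30.6 to 46.3 CPM with the transgene, and the part of myeloid cells in the value of Lyz2 was not tested.

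The remaining positive genes were Tnfaip8l2 (1.29), a negative regulator of immune receptor signaling, Scand1 (1.26), a SCAN-domain protein, Oxsm (1.14), the mitochondrial beta-ketoacyl synthase, and Mtcp1 (1.00), a member of the TCL1 family of AKT co-activators. Exons of Oxsm, Scand1 and Mtcp1 overlap those of another gene. For Scand1 the larger of the effects was the one without the transgene, -0.80, against 0.46 with it.

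Lists of genes that drive the cell cycle held no call for the interaction. Of 23 genes for G1 cyclins, CDKs, the Rb family and E2F, the direct neighbours of p21 in the pathway, 0 were called by edgeR, DESeq2 or limma-voom, 2 had an unadjusted p under 0.05 in edgeR, 12 were below 0 and the median was -0.02. These were E2f1 at -0.45 (SE 0.16, adjusted p = 0.181) and Skp2 at 0.66 (SE 0.23, adjusted p = 0.161). All 34 mitosis and G2/M genes were below 0 (33 with upper-quartile scaling), with a median of -0.34 and values of -0.64 to -0.04 (32 below 0 and a median of -0.22 without p21-/- replicate 2), and 39 of 48 DNA replication genes were below 0 with a median of -0.19. In these lists 0 genes were called by the 3 tools, and 4 and 5 had an unadjusted p under 0.05 in edgeR. Genes below 0 made up 48.2% of all those tested. Among the lists for growth, 77 of 79 cytosolic ribosomal protein genes (median -0.18), 48 of 51 splicing factors (median -0.24), 31 of 35 ribosome biogenesis factors (median -0.17) and 32 of 42 proteasome subunits (median -0.11) were below 0. None of these 4 lists had a call by any of the 3 tools, with 6, 19, 13 and 4 genes at an unadjusted p under 0.05 in edgeR, although 3 splicing factors had an adjusted p under 0.05 at less than 2-fold. Members of a list share their libraries, so such a common sign does not count as so many separate observations. Foxm1, a transcription factor of mitotic genes, was at 95.4, 97.7 and 94.7 CPM in WT, 98.2 and 115 CPM in p21-/-, 95.3 and 112 CPM in Lmo2Tg and 63.5 and 88.5 CPM in Lmo2Tg;p21-/- libraries, and its interaction of -0.60 (SE 0.19, adjusted p = 0.144) was not called.

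The lists for the LMO2 complex, pre-TCR and Notch held no call by edgeR. Among 22 genes of the LMO2 complex and of progenitors, 15 were above 0 (median 0.17, or 0.32 with 4 below 0 without p21-/- replicate 2), among 24 of the pre-TCR, CD3 and V(D)J recombination 14 (median 0.02), and among 25 of the Notch pathway 14 (median 0.05). In edgeR these lists had 4, 5 and 4 genes at an unadjusted p under 0.05, limma-voom called 0, and DESeq2 called 1, 0 and 1. Nfe2, an erythroid and megakaryocytic factor, was at 26.2, 25.1 and 27.5 CPM in WT, 23.6 and 19.5 CPM in p21-/-, 121 and 73.0 CPM in Lmo2Tg and 193 and 146 CPM in Lmo2Tg;p21-/- libraries, higher in every library with the transgene than in any without it. Its interaction was 1.09 (SE 0.29, adjusted p = 0.0915). Rag2, of the recombinase, was at 70.1, 62.0 and 84.9 CPM in WT, 97.3 and 72.9 CPM in p21-/-, 14.4 and 14.4 CPM in Lmo2Tg and 25.4 and 36.5 CPM in Lmo2Tg;p21-/- libraries. The effect of p21 loss with the transgene was 1.11 (SE 0.21, adjusted p = 0.0147), and its interaction of 0.88 (SE 0.27, adjusted p = 0.132) was not called. Of the Notch targets, Hey1 was at 10.95 and 7.32 CPM in Lmo2Tg and 0 to 3.61 CPM in the 7 other libraries. Its interaction was -5.77 (SE 1.39, adjusted p = 0.0763). Hes1 had an interaction of -1.69 (SE 0.46, adjusted p = 0.0999). It was at 107 and 291 CPM in Lmo2Tg, the first of which lay within the 67.7 to 109 CPM of the 7 other libraries.

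**Figure D5:**
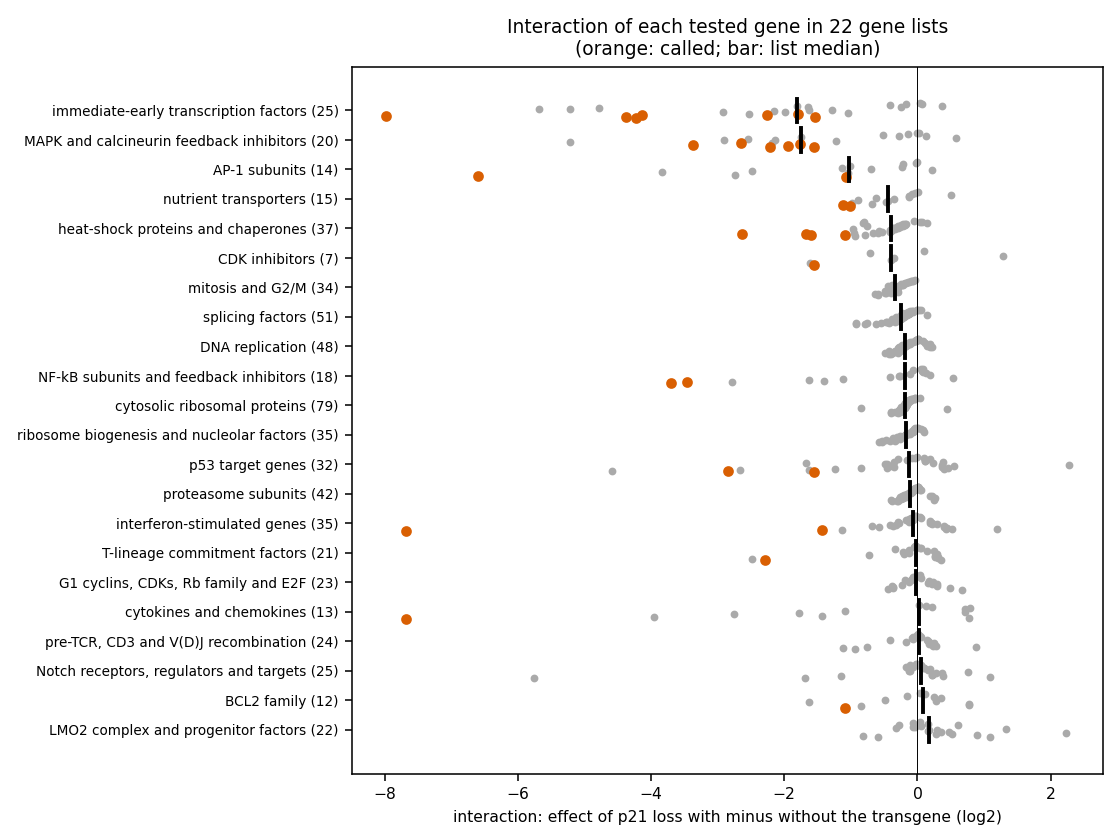
Interaction (horizontal axis, log2) of every tested gene in 22 lists (rows, number tested in brackets); orange points are called genes and black bars list medians. The 3 lists at the top have medians of -1.81, -1.75 and -1.04, and the other 19 lie between -0.45 and 0.17. The lists were chosen with earlier results of these data known.

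Most genes called for p21 loss without the transgene had an effect with it as well. Of the 12 genes called for p21-/- against WT, Cdkn1a was the only one also called for the interaction, and 10 lay on chromosome 17 within 7.04 Mb that include Cdkn1a (chr17:23836785-30877365, GRCm38). The ends of the segment were set by the outermost called genes, so its share of calls is a description. Chromosome 17 held 633 of the 11840 tested genes, and the segment 139. Of these 139, 10 (7.19%) were called without the transgene, 14 with it and 1 for the interaction, and their median interaction was 0.03. Over all tested genes, 0.101% were called without the transgene, 1.88% with it and 0.802% for the interaction. Glo1, the glyoxalase that clears methylglyoxal, had an effect of p21 loss of 1.09 (SE 0.08, adjusted p = 0.000146) without and of 1.31 (SE 0.09, adjusted p = 5.51e-05) with the transgene, an interaction of 0.22 (SE 0.12, adjusted p = 0.356). Rnps1, a splicing activator, had effects of -1.23 (SE 0.11, adjusted p = 0.000571) without and -1.50 (SE 0.11, adjusted p = 0.000122) with it. Atp6v0c, a subunit of the vacuolar proton pump, changed by -1.10 and -1.76, and its interaction of -0.66 (SE 0.14, adjusted p = 0.0522) was not called. These genes were listed after their values were seen. Gm9825, on chromosome 6, changed by 5.50 without the transgene and by 5.64 with it. Position near the deleted gene and loss of p21 cannot be told apart in this design.

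The called genes were also looked up in the other experiment of the series, in which DN3 thymocytes of H2B-GFP;Lmo2Tg mice were sorted into label-retaining GFPhi and dividing GFPlo cells (3 libraries each, from mice not lacking p21). These libraries did not enter the interaction. Of 82 negative genes that could be tested there, all 3 GFPhi libraries were above all 3 GFPlo libraries for 29, against 19.8% of all tested genes, and below them for 15, against 21.1%, with a median difference of 0.18 (log2). Of the 9 positive genes, 0 were higher in this way and 3 lower, with a median of -0.31. Nr4a3 was at 5.33, 4.57 and 2.98 CPM in GFPhi and at 1.89, 1.61 and 1.55 CPM in GFPlo, and Fosl2 at 0.81, 1.13 and 0.86 CPM against 0.41, 0.49 and 0.55 CPM. Both genes were higher in GFPhi without overlap. Clec11a was at 13.3, 6.25 and 18.1 CPM in GFPhi and at 21.9, 33.5 and 25.2 CPM in GFPlo, below it without overlap. Not every called gene had such an order. Nr4a1 overlapped, at 55.9, 57.9 and 23.5 CPM in GFPhi and 36.5, 31.0 and 27.1 CPM in GFPlo. Nfkbia was lower in GFPhi (47.9 to 48.5 CPM) than in GFPlo (54.8 to 59.9 CPM), and Spry1 overlapped between them, at 13.2 to 17.3 CPM and 14.0 to 14.9 CPM. The third GFPhi library lay apart from the others in Cdkn1a itself (6.56 CPM, against 35.8 and 29.9 CPM), and without it 39 of the 82 negative genes were above GFPlo and 19 below, against 3742 and 3645 of 11252 tested genes.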

How the data were processed

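Poly-A RNA was sequenced from total DN3 thymocytes of 4 genotypes. The values the authors deposited were raw counts of reads over each protein-coding gene, in whole numbers and not normalized; per the processing notes in the labels, reads were aligned to mm10 with STAR 2.4.2a and counted with featureCounts, and limma was named. Neither labels nor methods state the strand setting; the deposited tables are named for "No" (genotype libraries) and "Reverse" (GFP-sorted libraries), which may give it. 1 column matched no sample in the labels and was not used here, 1 of 3 p21 KO samples in the labels had no matching column, and the Lmo2Tg columns match their group by name, with digits also used for other samples.

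Genes were kept by filterByExpr (minimum count 10, total 15), scaled by TMM and tested in edgeR 4.0.16 (R 4.3.3) by the quasi-likelihood F test over genotype means of 9 libraries. P-values were adjusted by Benjamini-Hochberg over 11840 genes. CPM values are TMM-scaled, SE is the fitted change divided by the root of F, and values relative to WT use a prior count of 2. The procedure was tested on simulated data. Intervals were not formed, and the 6 GFP-sorted libraries were described without a test. Counts of replicates differed by more than sampling noise (chi-square per degree of freedom of 2.64 for the closest pair, WT replicates 1 and 2, and 9.32 to 18.3 for the others), so no library was counted as a duplicate.

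The members, gene lists and the naming rule were chosen with earlier results of these data known. Named were Cdkn1a and Lmo2, the 12 largest called interactions per direction with a mean of at least 1 CPM, up to 4 called members of each list with the largest interactions (2 with the smallest p where none was called) and genes called both for the interaction and without the transgene. Markers of NK, B-lineage, dendritic and stromal cells summed to 88.8 to 217, 158 to 213, 153 to 209 and 186 to 282 CPM over all 9 libraries, with 0 calls by edgeR, DESeq2 or limma-voom and 1, 1, 0 and 1 genes at an unadjusted p under 0.05 in edgeR. Of the gene identifiers, 98.2% were placed in GENCODE M21 (GRCm38), and exons of 31 of the 95 called genes overlap another gene. Alternatives were RLE and upper-quartile scaling, DESeq2, limma-voom, 3 filters, other thresholds, a replicate block and left-out libraries. The values of 1 gene are not reported here.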

Additional observations from a re-analysis of the deposited data

Results flagged for a closer look

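Each gene below responded to loss of p21 differently with and without the transgene by the test of the difference itself (edgeR quasi-likelihood test of the interaction, Benjamini-Hochberg adjusted), which is the comparison of the report, and 95 genes did so in all. Values are log2 interactions. Among transcription factors they were -7.98 for Nr4a3, -4.23 for Nr4a1, -4.13 for Nr4a2, -6.60 for Fosl2, -4.38 for Maff, -1.08 for Mafk, -1.43 for Irf1 and -2.30 for Id2. For inhibitors of signaling they were -3.38 for Dusp5, -2.21 for Spry1, -2.64 for Rgs2, -1.95 for Errfi1, -3.70 for Nfkbia and -3.46 for Tnfaip3. The value for Cdkn1a was -1.56, but this is the deleted gene, whose count need not be a response to p21 loss.

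For kinases, receptors and transporters the values were -3.70 for Sgk1, -3.94 for Trib1, -2.85 for Plk3, -5.02 for Plaur, -4.37 for Fzd9, -1.13 for Slc3a2 and -1.01 for Slc7a5. For chaperones and Mcl1 they were -2.64 for Dnajb9, -1.67 for Dnajb4, -1.60 for Hspa5, -1.08 for Hsph1 and -1.08 for Mcl1. The fitted values of -8.91 for Apol8, -7.67 for Cxcl10 and -3.93 for Pde1c depend on the prior count, since at least 1 genotype had no more than 3 counts in any library. Positive values were 2.83 for Clec11a, 2.14 for Ccr7, 2.09 for Zfp760, 1.46 for Zfp229, 1.29 for Tnfaip8l2, 1.26 for Scand1, 1.16 for Lyz2, 1.14 for Oxsm and 1.00 for Mtcp1. No group held enough libraries for a check of single libraries that lie far from the rest.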

How the results depend on the processing

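The count of 95 interactions was 94 with RLE and 98 with upper-quartile scaling, 105 and 75 with filters at 1 and 10 CPM and 68 with limma-voom, and moved to 161 with DESeq2, 224 with no filter, 163 without the fold threshold and 0 at an adjusted p of 0.01 by edgeR, where 2148 genes had an unadjusted p under 0.05. The 86 negative calls became 138, 183, 130 and 0 in the same 4 settings, and the 9 positive calls 23, 41, 33 and 0, besides 15 with upper-quartile scaling and 5 with limma-voom. With 1 library left out, the range was 0 to 259 in all, 0 to 191 negative and 0 to 68 positive, 48 to 235 for p21 loss with the transgene and 8 to 18 without it. A lone library was then assumed to vary like the other genotypes. Leaving out p21-/- replicate 2 and WT replicate 3 together, which was chosen after seeing the data, gave 27 interactions, 27 negative and 0 positive, with 242 calls for p21 loss with and 7 without the transgene. The 222 calls with the transgene became 109 at 10 CPM, 97 at an adjusted p of 0.01 and 822 without the fold threshold.

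With the replicate number as a block, 75 interactions were called, 73 negative and 2 positive, 67 of them among the 95. The numbers were read as names only, since same-numbered libraries mostly did not deviate together (correlations of -0.24 to 0.30, 1 of 10 over 0.1). Pairs of libraries with other numbers gave -0.38 to 0.38 (4 of 20 over 0.1), with WT replicate 3 and p21-/- replicate 1 at 0.38. Whether libraries of different genotypes group by something other than the number was not tested.

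None of the 95 genes changed sign in any setting, and 74 to 95 of those tested kept an interaction over 2-fold in the same direction. They were chosen by the fit of all libraries, with which every setting shares libraries, so a kept sign was favoured in advance. Of the genes named without a call, the interaction of Aire was 0.017 without Lmo2Tg replicate 2 and the interaction of Cd74 was 0.169 without p21-/- replicate 2 and WT replicate 3, both of opposite sign to the fit of all libraries, with lowest values of -1.089 and -0.922 when other single libraries were left out. The cause of these changes was not tested. Precision is limited by 2 libraries in each of 3 genotypes and by depth: 3 counts correspond to 0.222 CPM or less, and genes with 1 genotype at that level have no usable fold.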
